A study of Mus musculus with 8 samples.

Results

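The genes described here are 7 little-studied transcripts of the mouse retina, Gm47160, Gm4065, A930030B08Rik, A930041C12Rik, A430035B10Rik, 3010001F23Rik and 2810049E08Rik, out of 26824 genes in the deposited count table. They were picked because their counts were lower in the libraries labelled KO than in the WT libraries, whichever KO libraries were used. Their difference between WT and KO is therefore given as a description, without p-values, and calls on it appear only as counts beside the share of all genes called.

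Retinal RNA of wild-type mice was compared with that of mice labelled as knockouts of Kv8.2, the potassium channel subunit encoded by Kcnv2, which joins other Kv subunits in photoreceptors and forms no channel alone. There were 3 WT libraries (WT 1 to WT 3) and 5 KO libraries (KO 2 to KO 6), each made from total RNA of 2 pooled retinas of an untreated mouse aged 1 month. Strain and the nature of the deleted allele are not given in the sources used here. The submitters left 2 KO samples, which they did not name, out of their own test, so all 8 libraries were used.

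Symbols that begin with Gm or end in Rik are placeholders for genes known mainly from sequenced transcripts or from annotation, whose function has not been worked out. Many of them are long noncoding RNAs, which are spliced and processed like messenger RNAs but carry no long reading frame. Some long noncoding RNAs are made from the opposite strand of a coding gene or from a shared promoter region, and some are precursors of small RNAs. In the GENCODE M21 annotation the longest open reading frame of the 7 ran from 27 codons in A930041C12Rik to 104 codons in Gm4065.

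The 7 genes lay on 7 different chromosomes, none of them chromosome 19, which holds Kcnv2. All positions are on GRCm38, the build named in the submitters' processing notes, as GENCODE M21 gives them. Gm47160 (ENSMUSG00000111755) is a single exon at chr9:47473049-47474918 on the minus strand and belongs to the class TEC, gene models that still await experimental proof. A930030B08Rik (ENSMUSG00000108985) is also a TEC model of 1 exon, at chr7:99900192-99904156 on the minus strand, and lies within the span of Xrra1 on the other strand. Gm4065 (ENSMUSG00000112198) is a long intergenic noncoding RNA at chr10:118803719-118805290 on the minus strand with 2 annotated transcripts. A930041C12Rik (ENSMUSG00000085900) is an antisense RNA of 3 exons at chr5:107630250-107633850 on the minus strand, inside the span of Rpap2 on the plus strand.

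The other 3 genes start close to, or run through, other annotated genes. A430035B10Rik (ENSMUSG00000087305), at chr6:8488795-8510430 on the minus strand, is a processed transcript whose M21 start lies 830 bases inside Glcci1, a gene on the plus strand. Its RefSeq start lies 439 bases before the M21 start of Glcci1, and the pair is transcribed in opposite directions. 3010001F23Rik (ENSMUSG00000084885), at chrX:152368573-152416698 on the plus strand, begins 131 bases from the start of Gpr173 on the minus strand, and their first exons overlap. The row named 2810049E08Rik carries the identifier ENSMUSG00000050334, which GENCODE M21 calls C130071C03Rik, a long intergenic noncoding RNA at chr13:83721381-83884194 on the plus strand. In M21 the symbol 2810049E08Rik belongs to ENSMUSG00000100891 at chr13:83891208-83928710, an identifier with no row in the table. The values below are therefore those of ENSMUSG00000050334, under the symbol the table gives it.

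Sequences are shown for the strongest change, for the most abundant member per length, and for the loci where a start site or a small RNA helps to place the transcript. The first 2 exons of Gm4065, at chr10:118804968-118805259 on the minus strand of GRCm38, are printed as spliced, with the 5 bases on each side of the junction in capitals. The first 200 bases of the single exon of Gm47160, at chr9:47474719-47474918 on the minus strand, have no capitals.
Gm4065: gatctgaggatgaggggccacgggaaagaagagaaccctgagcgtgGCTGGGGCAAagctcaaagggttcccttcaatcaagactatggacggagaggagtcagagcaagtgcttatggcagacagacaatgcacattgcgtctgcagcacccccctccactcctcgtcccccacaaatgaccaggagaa
Gm47160: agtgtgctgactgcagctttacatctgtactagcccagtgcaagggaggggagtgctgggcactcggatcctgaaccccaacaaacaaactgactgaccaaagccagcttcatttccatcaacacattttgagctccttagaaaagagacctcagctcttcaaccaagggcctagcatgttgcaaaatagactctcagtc

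A single annotated exon of the row named 2810049E08Rik holds the hairpin of Mir9-2, at chr13:83738814-83738885 on the plus strand. Mir9-2 is one of the genes for miR-9, a microRNA of the developing nervous system. Its mature strands, from RefSeq on GRCm38.p6, are shown with the seed (bases 2 to 8) in capitals. The table counts the long transcript and not the mature microRNA.
mmu-miR-9-5p: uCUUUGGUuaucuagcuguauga
mmu-miR-9-3p: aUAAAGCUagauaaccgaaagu

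RefSeq promoter windows of GRCm38.p6, each 250 bases before to 50 bases after a start, matched 3 of the 7 genes, with 1 window for A930041C12Rik, 1 for A430035B10Rik and 3 for the row named 2810049E08Rik. The windows of A930041C12Rik (chr5:107633801-107634100, minus strand) and A430035B10Rik (chr6:8509112-8509411, minus strand) are printed because both lie beside or inside a coding gene. Capitals mark matches on either strand to 4 motifs: TAATCC, the core bound by the photoreceptor factor CRX, the CCAAT box, the GC box GGGCGG and the TATA box TATAAA.
A930041C12Rik: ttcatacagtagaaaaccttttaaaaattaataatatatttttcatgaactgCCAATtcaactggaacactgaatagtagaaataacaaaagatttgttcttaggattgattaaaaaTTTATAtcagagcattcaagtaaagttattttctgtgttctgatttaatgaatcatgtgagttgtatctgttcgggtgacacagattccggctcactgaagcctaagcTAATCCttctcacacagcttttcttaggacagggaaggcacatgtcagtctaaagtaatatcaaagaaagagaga
A430035B10Rik: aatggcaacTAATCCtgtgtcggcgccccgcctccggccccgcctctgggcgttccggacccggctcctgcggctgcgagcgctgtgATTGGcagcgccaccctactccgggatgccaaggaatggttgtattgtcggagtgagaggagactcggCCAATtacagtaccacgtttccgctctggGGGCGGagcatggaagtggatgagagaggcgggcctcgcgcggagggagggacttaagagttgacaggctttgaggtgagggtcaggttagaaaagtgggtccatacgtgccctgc

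Each of these windows held 1 match to TAATCC, which 7.06% of 32817 RefSeq promoter windows hold, and none of the 3 windows of the row named 2810049E08Rik had one. CCAAT occurred once in the window of A930041C12Rik and 2 times in that of A430035B10Rik, against 37.4% of all windows with at least 1 match. The row named 2810049E08Rik had 1 CCAAT match in 2 of its 3 windows. GGGCGG, present in 35.6% of windows, was found in A430035B10Rik and in the remaining window of the row named 2810049E08Rik, and TATAAA, present in 13.6%, in A930041C12Rik. The windows differed in base composition, with 32.7% G and C in A930041C12Rik and 62.3% in A430035B10Rik, on either side of the median of 52.7% over all windows. A match is a run of letters and not a measured binding site.

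Depth was 17759146 to 25188870 counts per library, so that 3 counts correspond to 0.130 to 0.164 CPM (a gene's counts per 1e+06 in its library, scaled by edgeR's trimmed mean of M values, TMM). The targeted gene, Kcnv2, stood at 519, 551 and 526 CPM in the WT libraries (WT 1 to WT 3 in order) and at 585, 447, 398, 409 and 409 CPM in KO 2 to KO 6. Its log2 fold change of KO over WT was -0.24 (SE 0.14, adjusted p = 0.275, edgeR quasi-likelihood test), and without KO 2 it was -0.35 (adjusted p = 0.0298). It was -0.04 with KO 2 and KO 3 (adjusted p = 0.903) and -0.38 with KO 4 to KO 6 (adjusted p = 0.000116, edgeR), and limma voom with all libraries called it at -0.36 (adjusted p = 0.00116). Counts over the whole gene overlapped between the labels, which part of the gene is deleted is not given in the sources used here, and "KO" below means a library labelled so. KO 4 to KO 6 stood apart from the other 5 libraries on the first principal component, which held 39.5% of the variance, and the labels name no batch. Mitochondrial transcripts took 7.09% to 7.92% of WT counts, 6.52% and 5.23% in KO 2 and KO 3, and 3.03% to 3.70% in KO 4 to KO 6. Lens markers took 2.56% of the counts of KO 3 and at most 0.0802% elsewhere, with 4 of the 8 lens genes at 0 in some library. Every neural and glial marker was detected in every library. Summed cone markers took 0.0797% to 0.0975% of WT counts and 0.0505% to 0.0697% of KO counts, with 2 of 5 called lower, and microglial markers took 0.00173% to 0.00190% and 0.00195% to 0.00270%, with 2 of 4 called higher. The part of these shifts in the values of the 7 transcripts was not tested. WT 3 alone had Y-linked transcripts, with 2132 counts of Ddx3y against 1 to 3 elsewhere.

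Gm4065, the intergenic RNA, showed the deepest drop of the 7. It stood at 4.93, 5.41 and 5.91 CPM across WT 1 to WT 3, and at 0.738, 0.903, 0.197, 0.307 and 0.319 CPM in KO 2 to KO 6. Every KO library lay far below every WT library, and the highest KO library reached 18.3% of the lowest WT library. In counts this was 90, 115 and 133 reads in WT against 17, 19, 4, 6 and 7 in KO, above the 3-count floor in all libraries. The group means were 5.42 ± 0.486 CPM (SD, n = 3) and 0.493 ± 0.309 CPM (SD, n = 5), with a log2 fold change of -3.43 (SE 0.38). The KO libraries were not alike, since KO 4 to KO 6 lay at 0.334 times the mean of KO 2 and KO 3 without overlap. The log2 fold change was -2.72 with KO 2 and KO 3 alone and -4.26 with KO 4 to KO 6 alone.

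Gm47160, one of the single-exon models, had the highest level per length of the 7 in WT retina. Its values were 87.6, 77.9 and 79.0 CPM across WT 1 to WT 3, and 11.3, 25.8, 20.3, 17.9 and 25.0 CPM in KO 2 to KO 6. The groups did not overlap, and the highest KO library, KO 3, was at 33.1% of the lowest WT library. Means were 81.5 ± 5.34 CPM (SD, n = 3) and 20.1 ± 5.89 CPM (SD, n = 5), a log2 fold change of -2.02 (SE 0.21). KO 2 was the lowest and KO 3 the highest of the KO libraries. The log2 fold change was -2.14 for KO 2 and KO 3 and -1.94 for KO 4 to KO 6.

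A930030B08Rik, the single-exon model within Xrra1, was at 15.7, 12.9 and 14.8 CPM across WT 1 to WT 3, and at 5.51, 6.28, 4.43, 4.45 and 7.74 CPM in KO 2 to KO 6. All KO libraries were below all WT libraries, with KO 6 the highest at 60.1% of the lowest WT value. The means of 14.5 ± 1.46 CPM (SD, n = 3) and 5.68 ± 1.39 CPM (SD, n = 5) gave a log2 fold change of -1.35 (SE 0.19). It was -1.30 for KO 2 and KO 3 and -1.37 for KO 4 to KO 6.

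A930041C12Rik, the antisense RNA within Rpap2, was at 6.30, 6.91 and 5.73 CPM across WT 1 to WT 3, and at 2.43, 2.38, 3.05, 2.40 and 2.23 CPM in KO 2 to KO 6. KO 4 was above the other KO libraries, which lay close together, and reached 53.3% of the lowest WT library. Means were 6.32 ± 0.592 CPM (SD, n = 3) and 2.50 ± 0.319 CPM (SD, n = 5), a log2 fold change of -1.34 (SE 0.16). The values were -1.39 for KO 2 and KO 3 and -1.29 for KO 4 to KO 6.

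A430035B10Rik, the transcript beside Glcci1, was nearly the same in the WT animals, at 44.8, 43.7 and 44.9 CPM, and stood at 18.7, 25.9, 16.5, 14.8 and 18.1 CPM in KO 2 to KO 6. No KO library reached a WT library, and the highest, KO 3, was at 59.1% of the lowest WT value. Means were 44.5 ± 0.673 CPM (SD, n = 3) and 18.8 ± 4.22 CPM (SD, n = 5), a log2 fold change of -1.24 (SE 0.16). KO 4 to KO 6 lay at 0.740 times KO 2 and KO 3 without overlap, and the log2 fold change was -1.42 and -0.999 in these subsets. A correction for GC content, which is 39.2% in its longest transcript, moved the value over all libraries to -0.95.

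**Figure D1:**
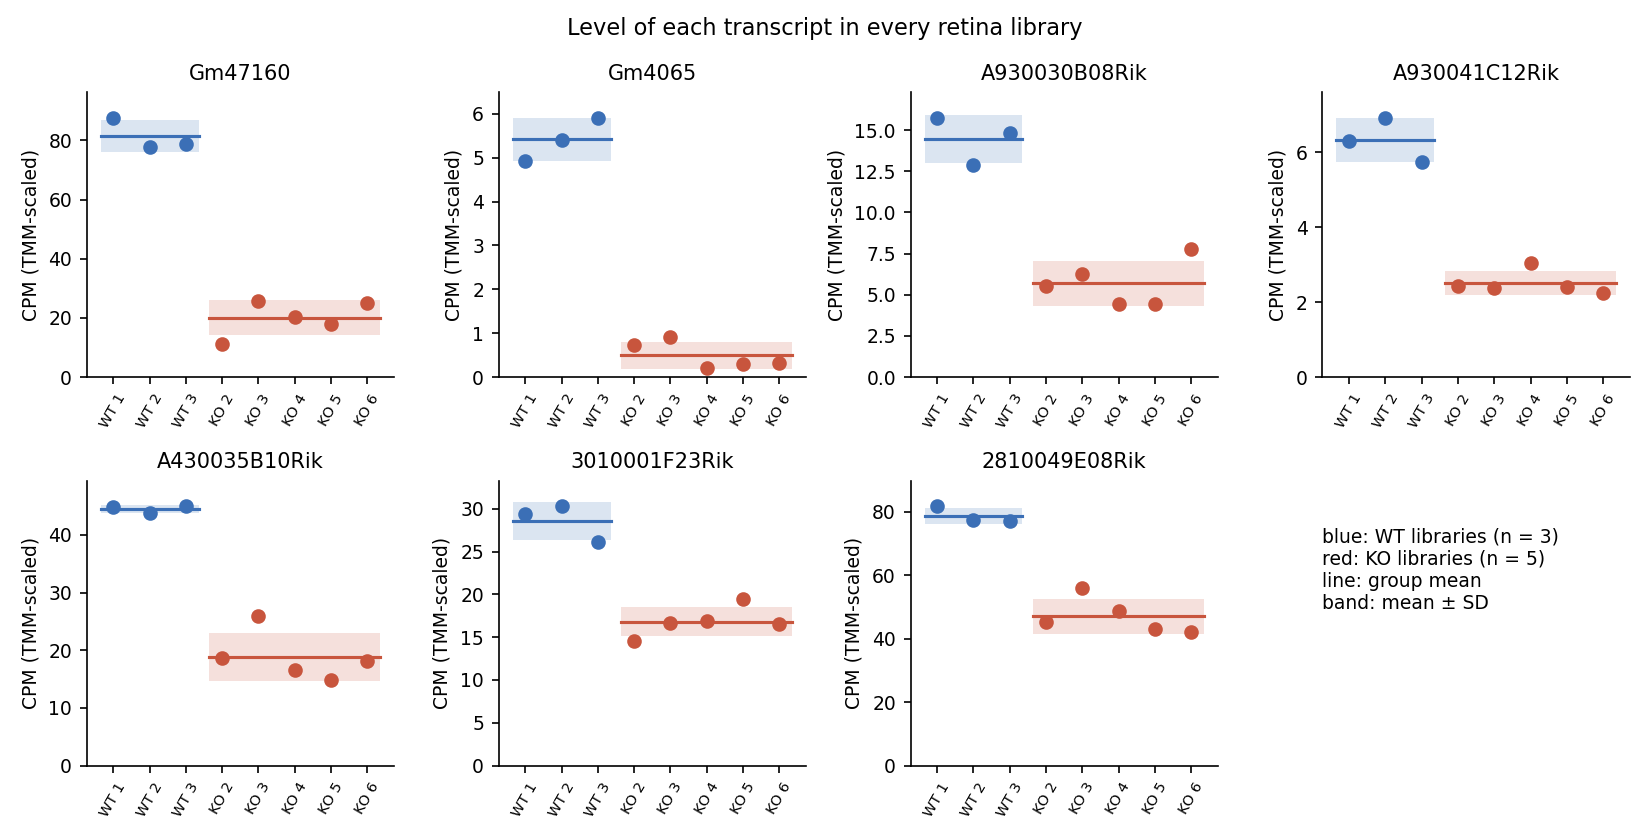
Level of each of the 7 transcripts in every library, in TMM-scaled CPM on a linear axis that starts at 0, with points for single libraries of the WT (3) and KO (5) groups a line for the group mean and a band for the mean ± SD. In all 7 panels each KO point lies below each WT point, and the KO mean as a share of the WT mean runs from 9.10% in Gm4065 to 59.7% in 2810049E08Rik, while the vertical scale differs between panels.

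The remaining pair of genes differed less. 3010001F23Rik, the X-linked transcript that starts beside Gpr173, was at 29.4, 30.3 and 26.1 CPM across WT 1 to WT 3, and at 14.6, 16.7, 16.8, 19.4 and 16.5 CPM in KO 2 to KO 6. The groups were apart, with KO 5 at 74.4% of WT 3, which was the lowest WT library and the one with Y-linked transcripts. Means were 28.6 ± 2.20 CPM (SD, n = 3) and 16.8 ± 1.72 CPM (SD, n = 5), a log2 fold change of -0.77 (SE 0.11). It was -0.87 for KO 2 and KO 3 and -0.69 for KO 4 to KO 6.

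The row named 2810049E08Rik, the transcript that holds Mir9-2, was at 81.6, 77.3 and 77.2 CPM across WT 1 to WT 3, and at 45.3, 56.0, 48.6, 42.9 and 42.1 CPM in KO 2 to KO 6. KO 3 was the highest KO library, at 72.6% of the lowest WT value, and there was no overlap. Means were 78.7 ± 2.54 CPM (SD, n = 3) and 47.0 ± 5.65 CPM (SD, n = 5), a log2 fold change of -0.74 (SE 0.10). It was -0.63 for KO 2 and KO 3, -0.81 for KO 4 to KO 6 and -0.54 after the correction for GC content. In whole retina, fewer cells that make a transcript and less of it per cell cannot be told apart, for this and the other 6 genes.

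KO 3, the library with lens transcripts, was the highest KO library for Gm4065, Gm47160, A430035B10Rik and the row named 2810049E08Rik. The median log2 fold change of the 7 was -1.34 with all libraries and -1.38 without KO 3. It was -1.30 for KO 2 and KO 3 and -1.37 for KO 4 to KO 6, with all 7 below 0 in either subset.

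All 7 transcripts met the call for lower expression in KO (edgeR quasi-likelihood test, adjusted p under 0.05), as did 2.84% of the 20167 tested genes. All 7 also had every KO library below every WT library, a pattern shared by 10.1% of tested genes. With KO 2 and KO 3 alone, 0.267% of genes were called lower (0.891% in either direction), and with KO 4 to KO 6 alone 20.5% were (42.8% in either direction), and the 7 were among them in both fits. They were also called lower in each of the 10 fits of 3 KO against 3 WT libraries, as were 0.159% of tested genes, or 32 in all. Among tested genes, 10 had a lower log2 fold change than Gm4065, 51 than Gm47160, 183 to 226 than A930030B08Rik, A930041C12Rik and A430035B10Rik, and 871 and 934 than 3010001F23Rik and the row named 2810049E08Rik. Without WT 1, where 0.212% of genes were called lower, and without WT 2, where 0.23% were, 6 of the 7 met the call, the exception being 3010001F23Rik. With only WT 2, WT 3, KO 2 and KO 3, the call was met by 2 of the 7 with the replicate number as a block, as by 0.0707% of genes, and by 1 without the block, as by 0.0101%. Since the 7 were picked on this contrast, nothing is read from these counts.

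**Figure D2:**
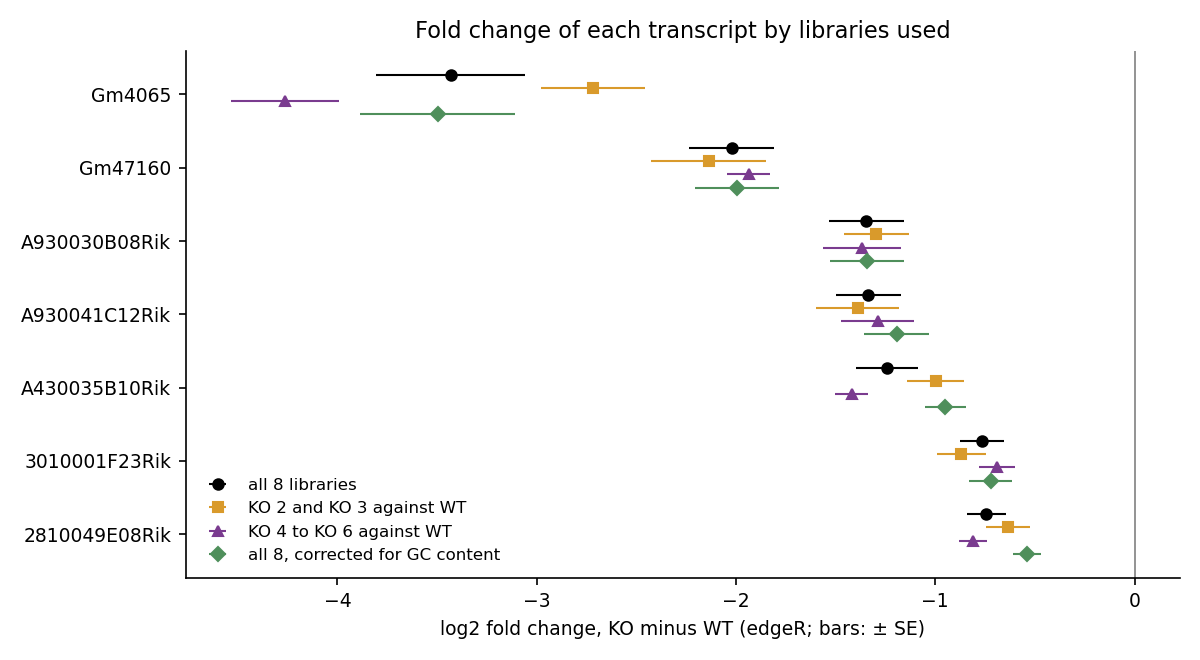
Log2 fold change of KO over WT for each of the 7 transcripts, with its standard error, for all 5 KO libraries, for KO 2 and KO 3, and for KO 4 to KO 6, each against the 3 WT libraries. All values lie below 0, and the subsets differ most for Gm4065, at -2.72 and -4.26.

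Divided by the length of the longest annotated transcript, WT levels fell in the order Gm47160 (43.6 ± 2.85 CPM per kb), 3010001F23Rik (32.6 ± 2.51), A430035B10Rik (22.1 ± 0.335), the row named 2810049E08Rik (21.9 ± 0.706), A930041C12Rik (11.8 ± 1.1), Gm4065 (5.49 ± 0.493) and A930030B08Rik (3.65 ± 0.367), with SD over 3 libraries. On this measure A430035B10Rik and the row named 2810049E08Rik did not differ beyond their spread. The order depends on the length chosen, since counts cover all transcripts of a gene. The longest transcript has 2010 bases of 5056 exon bases in A430035B10Rik and 3590 of 5664 in the row named 2810049E08Rik. In KO libraries the order changed, with 3010001F23Rik first at 19.2 ± 1.97 CPM per kb, the row named 2810049E08Rik at 13.1 ± 1.57, and Gm47160 next at 10.7 ± 3.15 (SD, n = 5). Gm4065 was last in KO, at 0.500 ± 0.313 CPM per kb. Relative to their mean, levels in KO varied more than in WT for each gene, with coefficients of variation of 10.2% to 62.6% against 1.51% to 10.1%. In CPM the SD was smaller in KO than in WT for Gm4065 (0.309 against 0.486) and A930030B08Rik (1.39 against 1.46). It was also smaller for A930041C12Rik (0.319 against 0.592) and 3010001F23Rik (1.72 against 2.20), and larger in KO for the other genes.

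How far the 7 transcripts varied together was described by correlation. Pearson's r of log2 CPM over the 8 libraries ran from 0.850 to 0.979 over the 21 pairs, a range that the choice of genes fixes. After the group means were taken out, r ran from -0.680 to 0.793 with a median of 0.229, and 9 of the 21 pairs were negative. The closest pairs were A430035B10Rik with Gm4065 (0.793) and with the row named 2810049E08Rik (0.791), and the farthest was A930030B08Rik with A930041C12Rik (-0.680). These are descriptions over 8 libraries that differ in depth, and whether they were prepared together is not given in the sources used here.

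The genes with the most similar pattern over the 8 libraries, 2 for each member, were mainly of other kinds. For Gm47160 they were Dnah9, an axonemal dynein heavy chain (r = 0.993), and Sdhaf4, an assembly factor of succinate dehydrogenase (0.988). For Gm4065 they were Gm16055 (0.995) and 5330413P13Rik (0.994), and the latter was also among the nearest to A430035B10Rik (0.987), with the DNA damage checkpoint gene Rad1 (0.991). A930041C12Rik was matched by Traf3ip3 (0.997) and Ppp1r42 (0.984), and A930030B08Rik by AI429214 (0.985) and the phosphate transporter family gene Slc17a3 (0.977). 3010001F23Rik was matched by Glb1l2 (0.984) and the antiproliferative gene Btg2 (0.976), and the row named 2810049E08Rik by Kctd18 (0.990) and Abhd10 (0.990). Their log2 fold changes, from -1.69 for Gm16055 to -0.29 for Btg2, are negative by the choice of genes alike.

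Genes around the 7 loci were examined because the choice of members did not use them. There were 21, namely 7 that overlap a member and the nearest table gene on either side, and 16 passed the filter on low counts. Of the 16, 4 were called lower and 0 higher, 12 had a log2 fold change below 0, and the median was -0.22, against 0.00 over all tested genes, of which 7.58% were called in either direction. At an unadjusted p under 0.05 there were 6 of the 16, and 5506 of all 20167 tested genes. All 7 overlapping genes lay on the opposite strand of their member, and 1 of them was called.

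That gene was Gm33366, a TEC model opposite the row named 2810049E08Rik. It stood at 6.47, 4.94 and 5.55 CPM across WT 1 to WT 3, and at 1.87, 3.38, 2.22, 1.94 and 1.59 CPM in KO 2 to KO 6, with no overlap. Its log2 fold change was -1.36 (SE 0.24, adjusted p = 0.0138, edgeR). Of the 1334 31-base words that the exons of the row named 2810049E08Rik share with other genes, 1269 are shared with Gm33366, so reads of the pair may have been divided between them, and no strand setting is given in the sources used here. On the far side of the same locus, Gm17750, a long intergenic noncoding RNA 141102 bases away, was also lower, with a log2 fold change of -1.15 (SE 0.21, adjusted p = 0.0151, edgeR). Gm55122, the other overlapping noncoding RNA, was not called (-0.29, SE 0.25, adjusted p = 0.480, edgeR).

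Coding genes that overlap a member did not pass the edgeR test with all libraries. Xrra1, opposite A930030B08Rik, had 10 to 30 counts per library and a log2 fold change of 0.22 (SE 0.38, adjusted p = 0.750, edgeR). A930030B08Rik shares 6.96% of its 31-base words with other genes, nearly all of them with Xrra1. Rpap2, which codes for an RNA polymerase II phosphatase and surrounds A930041C12Rik, had a log2 fold change of -0.08 (SE 0.14, adjusted p = 0.749, edgeR) with no word in common. The log2 fold change of Glcci1, which overlaps A430035B10Rik, was -0.24 (SE 0.16, adjusted p = 0.362, edgeR). Glcci1 was called by limma voom with all libraries, at -0.39 (adjusted p = 0.00969), and by edgeR against KO 4 to KO 6 alone, at -0.45 (adjusted p = 0.00175), and against KO 2 and KO 3 its log2 fold change was 0.04. Gpr173, the orphan receptor gene beside 3010001F23Rik, stood at 0.11 (SE 0.13, adjusted p = 0.617, edgeR). The difference between each member and its neighbour was not tested. Gm45062, which runs across Glcci1, had 0 counts in WT 1, KO 3 and KO 4 and up to 748 elsewhere, so its log2 fold change of 0.54 (SE 1.45) says little.

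Glmn, near A930041C12Rik, was near the threshold, with a log2 fold change of -0.41 (SE 0.12, adjusted p = 0.0596, edgeR), and was called under some alternatives, such as DESeq2 (adjusted p = 0.0243) and without KO 3 (adjusted p = 0.0131, edgeR). Besides Gm33366 and Gm17750, the called neighbours were Umad1 and Il22b. Umad1, near A430035B10Rik, had a log2 fold change of -0.38 (SE 0.10, adjusted p = 0.0498, edgeR), at the edge of the threshold. With DESeq2's size factors its adjusted p was 0.0531, and the correction for GC content brought it to -0.19 (adjusted p = 0.183, edgeR). Il22b, a gene of the interleukin-22 family that lies 508680 bases from Gm4065, had 3 to 42 counts and a log2 fold change of -1.77 (SE 0.42, adjusted p = 0.0357, edgeR). With the GC correction it was -1.53 and no longer called (adjusted p = 0.0647, edgeR). None of the 4 kept its call when WT 1, WT 2 or WT 3 was left out, and none was called with KO 2 and KO 3 alone. There, 5 of 17 tested neighbours had an unadjusted p under 0.05, as had 3831 of all 20201 tested genes. In that fit the log2 fold change was -1.11 for Gm33366 (adjusted p = 0.116) and -1.06 for Gm17750 (adjusted p = 0.119, edgeR). Il22b was at -2.39 and Umad1 at -0.30 in the same fit. With a WT library left out the log2 fold change was -1.25 to -1.44 for Gm33366, -1.005 to -1.22 for Gm17750, -1.48 to -1.96 for Il22b and -0.31 to -0.42 for Umad1. With KO 4 to KO 6 alone, 10 of 16 neighbours were called, in a comparison where 42.8% of all tested genes were.

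**Figure D3:**
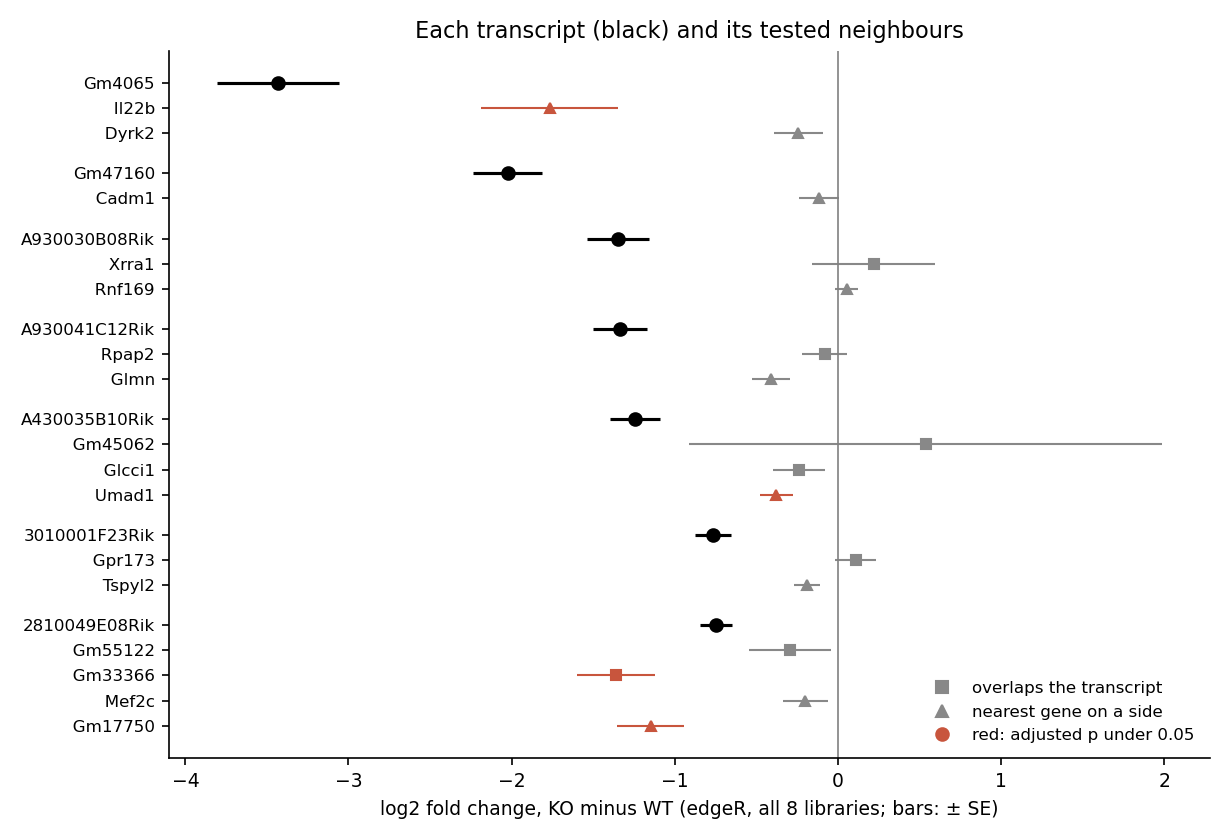
Log2 fold change of KO over WT, with standard error, for the tested neighbours of the 7 loci beside the member of each locus. Members lie between -3.43 and -0.74, the called neighbours between -1.77 and -0.38, and Xrra1, Rpap2, Glcci1 and Gpr173, coding genes that overlap a member, between -0.24 and 0.22.

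Other genes of the same naming class formed the wider setting. Of 5322 tested genes named Gm or Rik besides the 7, 164 were called lower (3.08%) and 73 higher (1.37%), with a median log2 fold change of -0.13. Of the 14838 tested genes with other names, 402 were lower (2.71%) and 883 higher (5.95%), with a median of 0.03. Among long noncoding RNAs of the naming class 84 of 1937 were lower and 31 higher, among TEC models 19 of 750 were lower and 4 higher, and among pseudogenes 3 of 289 were lower and 5 higher. The split of all called genes, 956 higher and 573 lower, turned to 566 and 787 when counts were scaled by library size alone, while the Gm and Rik genes had more lower than higher calls under both scalings, at 176 and 55 under library size alone. Lower calls outnumbered higher ones in 23 of the 30 alternative fits, among them all 5 that left out 1 KO library and 8 of the 10 with 3 KO libraries. They did not without WT 1 (9 lower, 13 higher) or WT 3 (18 and 19), with KO 2 and KO 3 alone (15 and 15), with KO 2, KO 3 and KO 6 (11 and 14) or with KO 3, KO 5 and KO 6 (36 and 36), nor in the fits of 4 libraries with and without the replicate block (6 and 8, 0 and 1). The median log2 fold change of the class was below 0 in all 30, from -0.22 to -0.06. The difference between the naming classes was not tested.

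Among these genes, the 5 with the smallest p-values in each direction and no overlap between groups are described. Gm44812, an intergenic RNA, was at 4.94 ± 1.39 CPM in WT and 1.45 ± 0.183 CPM in KO (log2 fold change -1.76, adjusted p = 0.00256, edgeR, here and below). Gm16055, an antisense RNA, which also followed the pattern of Gm4065, was at 7.42 ± 0.552 and 2.29 ± 0.587 CPM (-1.69, adjusted p = 0.00256). Gm17529 (-1.29), Gm71789 (-1.69) and Gm66235 (-0.98) were lower as well. In the other direction, Gm3716, an intergenic RNA, rose from 2.43 ± 0.289 to 13.7 ± 2.44 CPM (2.49, adjusted p = 0.000122), and Gm12802, an antisense RNA, from 0.763 ± 0.267 to 7.17 ± 1.22 CPM (3.21, adjusted p = 0.000208). Gm41793 (2.83), Gm16062 (1.49) and Gm28875 (0.77) were also higher in KO.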

How the data were processed

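Retinal RNA of 8 mice was sequenced. The authors deposited 1 table of counts per gene, whose values are whole numbers that were treated as estimated counts, since the submitters' processing notes name Salmon 1.10.2, with Trim Galore, DESeq2 and the build GRCm38. The annotation release and the strand setting are not given in the sources used here, and 4703 of the 26824 gene identifiers were not found in GENCODE M21, from which positions, lengths, GC content and shared 31-base words were taken. Every gene had at least 16 counts in total.

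Counts were fitted with edgeR 4.0.16 in R 4.3.3 (TMM, filterByExpr, quasi-likelihood test, no covariate, Benjamini-Hochberg adjustment over 20167 genes, called at an adjusted p under 0.05). Log2 CPM used a prior count of 2. P-values measure the spread between libraries of a group. In KO that spread includes the split on the first principal component, which the fit did not model. The fit was tested on simulated counts for 19713 genes of which 200 changed 2-fold, and 93 of those (46.5%) were called, with 10 others.

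The 7 genes, the gene lists and the tests were chosen with earlier results of these data known. Genes named were the 7, Kcnv2, the 2 non-sex-linked genes with the highest r to each member (mean log2 CPM of at least 1), neighbours that overlap a member, start within 10000 bases or pass the test, and the 5 Gm or Rik genes with the smallest p in each direction among those without overlap (mean log2 CPM of at least 0). Glmn, Gm38405, Gm16042, Mir9-3hg and Ddx3y fall outside this rule and were named after their values had been seen. No 2 libraries of a group agreed within sampling noise (chi-square per degree of freedom of 5.85 or more over 13 pairs). Alternatives were other scalings, DESeq2 1.42.0, limma voom 3.58.1, robust estimation, other filters, subsets of libraries, a replicate block and a GC offset. The floor of 3 counts covers counting error only, while each SD and SE covers the spread between libraries.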

Additional observations from a re-analysis of the deposited data

Results flagged for a closer look

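Among the KO libraries of A930041C12Rik, KO 4 stood apart from the rest. It was at 3.05 CPM, while the other 4 KO libraries lay between 2.23 and 2.43 CPM. On the log2 CPM scale the gap from KO 4 to the nearest library was 0.729 of the whole KO range, above the limit of 0.71 for 5 samples. The 3 WT libraries, at 5.73 to 6.91 CPM, were all higher. Of 18 genes looked at in this way this was the only one past the limit, and chance alone passes about 1 in 20 groups, or 0.9 of these.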

How the results depend on the processing

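The 7 transcripts had a log2 fold change below 0 in all 209 fits of a member under an alternative. Their median ran from -1.15 (KO 2, KO 3 and KO 6 against WT) to -1.41. Against the larger of a member's group SDs of log2 CPM, 2 members moved further than 1 SD, Gm4065 with KO 4 to KO 6 (-4.26, SD 0.756) and the row named 2810049E08Rik with the GC correction (-0.54, SD 0.167). Gm4065 with KO 2 and KO 3 (-2.72) and A430035B10Rik with the GC correction (-0.95, SD 0.2999) came close to it. Gm4065 was not tested when at least 10 counts were asked of every library.

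Counts of calls depended on the libraries far more, and the cause was not tested. With all libraries 1529 genes, 237 Gm or Rik genes and 4 neighbours were called. These 3 counts, in that order, were 3066, 376 and 4 with DESeq2, 8248, 1306 and 10 with limma voom, 180, 30 and 0 for KO 2 and KO 3, and 8416, 1076 and 10 for KO 4 to KO 6. Leaving out 1 library gave 132 to 3992 genes, 22 to 526 Gm or Rik genes and 0 to 6 neighbours. Without WT 1, WT 2 and WT 3 the genes numbered 132, 135 and 199, without KO 2 and KO 3 2781 and 3992, and without KO 4, KO 5 and KO 6 365, 388 and 531. With 3 KO libraries they were 203, 37 and 0 (KO 2, KO 3, KO 4), 191, 36 and 0 (KO 2, KO 3, KO 5), 118, 25 and 0 (KO 2, KO 3, KO 6), 645, 111 and 2 (KO 3, KO 4, KO 5), 496, 90 and 0 (KO 3, KO 4, KO 6), and 399, 72 and 0 (KO 3, KO 5, KO 6). KO 2 with KO 4 and KO 5 gave 2593 genes, and KO 2 with KO 5 and KO 6 gave 2540. The GC correction gave 142 Gm or Rik genes and 2 neighbours, Gm33366 and Gm17750. It took in only genes found in GENCODE M21, so that 3319 Gm or Rik genes were tested in place of 5322. Of the 237 called with all libraries, 51 lower and 30 higher ones were not in M21 and could not be called there. The count of 142 is therefore not set against the same genes as 237. In the edgeR fits with 0 neighbours called, 3 to 8 of 16 to 19 tested neighbours had an unadjusted p under 0.05. Over all tested genes, 1964 of 19788 (replicate block) to 5354 of 19680 (KO 3, KO 5, KO 6) did so in these fits.

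Replicate numbers 2 and 3 occur in both groups, but same-numbered libraries did not deviate together (r = -0.00442 and -0.241), so the numbers were not taken to pair mice. A replicate block on these 4 libraries gave 52 genes, 14 Gm or Rik genes and 0 neighbours, against 14, 1 and 0 without the block. Of the 7 transcripts 2 and 1 met the call in these fits.

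Signs turned for some neighbours that were not called. The log2 fold change was -0.049 (limma voom) and -0.17 (KO 3, KO 4, KO 6) for Xrra1. For Rpap2 it was 0.14 (KO 2 and KO 3, and with or without the replicate block), 0.038, 0.015 and 0.0093 (KO 2 and KO 3 with KO 4, KO 5 or KO 6). For Gm45062 leaving out a library gave -0.036 to 2.88, and it was -0.65 (KO 3, KO 4, KO 5), -0.39 (KO 3, KO 4, KO 6) and -0.92 (block). Glcci1 was at 0.042 (KO 2 and KO 3), 0.075 (block) and 0.067 (no block). Genes near the floor of 3 counts, such as Il22b, limit what depth can show.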

Other observations

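Mir9-3hg, the host transcript of another miR-9 gene, was looked up after the values of the row named 2810049E08Rik had been seen. Its level was 2.22 ± 0.209 CPM (SD) over the 3 WT libraries and 1.41 ± 0.282 CPM (SD) over the 5 KO libraries, with a log2 fold change of -0.65 (SE 0.23, adjusted p = 0.100, edgeR), so it did not pass the test.

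Some neighbours of the 7 loci were below the filter on low counts and have counts only. Gm38405, on the same strand as A930030B08Rik and 10833 bases away, had 15, 4 and 16 counts in WT 1 to WT 3 and 1, 4, 2, 5 and 4 in KO 2 to KO 6. Gm16042, a processed pseudogene near A430035B10Rik, had 66 counts in KO 4 and 0 in the other 7 libraries.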
